A study of Mus musculus with 2 samples.

Results

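The 10 immediate early genes Fos, Fosb, Jun, Junb, Jund, Egr1, Atf3, Ier2, Dusp1 and Zfp36 were described in single cells from prostate tumour tissue of 2 mouse models, as 10 of the 28000 features counted in each library. They were chosen by name, and each had 1 feature in either library. DoubleTg mice (hHGFtg:H11hMET/+:PBCre4) carried a human HGF transgene expressed throughout the body and a human MET transgene, hMETtg, under a CAG promoter with a stop cassette, which Cre from the PBCre4 line cuts out in the epithelial cells of the prostate. TripleTg mice carried both transgenes, the same Cre and the Ctnnb1 L(Ex3)/+ allele, from which Cre removes an exon to leave a stabilised β-catenin. The DoubleTg tissue was labelled prostatic adenocarcinoma and the TripleTg tissue prostatic carcinoma, the mice were of mixed C57BL/6 and C3H SCID background, and the ages of the sequenced mice are not given in the sources used here. Each genotype had 1 library, so every difference describes these libraries, none was tested across replicates, and all intervals are 95% intervals for counting error only.

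Immediate early genes are switched on within minutes of a growth factor, stress or calcium signal without new protein synthesis, and most of their transcripts are short-lived. HGF binding to the receptor MET starts the MAP kinase cascade, one of the routes that reach their promoters through serum response factor and CREB. Fos and Jun proteins pair to form the transcription factor AP-1, while Dusp1 and Zfp36 act in feedback, on MAP kinases and on unstable transcripts. Enzymatic dissociation of tissue is itself known to raise these genes. Tissue of both genotypes was placed in medium with fetal bovine serum and dihydrotestosterone. It was digested with type II collagenase and then TrypLE at body temperature, and the part of this shared step in any level below was not tested.

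The kept cells numbered 10598 of 12072 in DoubleTg and 9492 of 9492 in TripleTg, with a median of 16761 and 20097 unique molecular identifiers (UMIs, each marking 1 captured RNA molecule) and of 3432 and 3598 genes per cell. The libraries shared 29 cell barcodes, 0.306% of the smaller library. Clusters were named from marker genes after clustering without the 10 genes. Luminal-like cells made up 46.7% of DoubleTg and 51.2% of TripleTg cells, basal-like cells numbered 1905 and 1094, and 13.9% and 17.4% stayed unnamed, most of them shallow. In bulk-like sums over a class, fewer expressing cells and less RNA per cell cannot be told apart.

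Of the 10 genes, 8 had an entry in a RefSeq promoter table on GRCm38.p6. The 5 letters TGACG, the core of the cyclic AMP response element to which CREB and ATF proteins bind, were found on either strand within 250 bases upstream of the start in Fos, Fosb, Junb, Atf3 and Dusp1, 5 of the 8, and in 17.8% of all 32851 promoters of that length. The full element TGACGTCA, which contains TGACG on both strands, was found in Dusp1 alone and in 1.55% of promoters. Within the same 250 bases a CArG box, the element that serum response factor binds, was found in Zfp36 alone of the 8 and in 1.47% of promoters. Letters further upstream were not searched, and Egr1 and Ier2 had no entry. The AP-1 letters TGANTCA were in none of the 8 and in 6.75% of promoters. A match here is a description of the letters and not of binding. The stretches around the matches are shown on the gene's own strand, because they are the sequence that these members share or differ in, with the matched letters in capitals (CGTCA is TGACG on the other strand):
Fos, chr12:85473736-85473853, plus strand: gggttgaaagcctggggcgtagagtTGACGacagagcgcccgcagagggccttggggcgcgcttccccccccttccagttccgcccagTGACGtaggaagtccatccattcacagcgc
Fosb, chr7:19310076-19310130, minus strand: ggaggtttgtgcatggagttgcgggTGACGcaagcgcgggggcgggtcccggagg
Junb, chr8:84978825-84978879, minus strand: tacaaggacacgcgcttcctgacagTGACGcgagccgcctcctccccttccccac
Atf3, chr1:191183334-191183365, minus strand: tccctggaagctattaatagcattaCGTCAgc
Dusp1, chr17:26508583-26508688, minus strand: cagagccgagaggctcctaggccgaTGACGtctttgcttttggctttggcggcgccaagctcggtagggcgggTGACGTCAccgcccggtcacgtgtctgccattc
Zfp36 (CArG box), chr7:28379252-28379311, minus strand: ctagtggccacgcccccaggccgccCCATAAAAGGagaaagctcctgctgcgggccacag

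The matches lay 129 and 66 bases before the RefSeq start in Fos, 60 in Fosb, 106 in Junb, 7 in Atf3, 191 and 143 in Dusp1 and 58 in Zfp36. The genes themselves lie apart on GRCm38: Fos at chr12:85473890-85477273, Fosb at chr7:19302696-19310051, Jun at chr4:95049034-95052222, Junb at chr8:84974484-84978718, Jund at chr8:70698949-70700616, Egr1 at chr18:34859823-34864984, Atf3 at chr1:191170296-191218039, Ier2 at chr8:84661331-84662852, Dusp1 at chr17:26505590-26562128 and Zfp36 at chr7:28376784-28380253. These GENCODE spans join all transcripts of a gene, and the RefSeq start used for the stretches lies inside the span by 34706 bases in Atf3, 53656 in Dusp1 and 1025 in Zfp36, where it is 7, 0 and 27 bases from the nearest GENCODE transcript start. In Fos, Fosb, Jun and Junb it is 0, 1, 0 and 30 bases from one. In Jund, counted above among the promoters without a match, it lies 1210 bases upstream of the one GENCODE transcript start, so the window searched was a different one from that start's own. The library chemistry reads the 3′ end of transcripts, so isoforms that differ at their start were counted together.

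Among classes of at least 50 cells the summed 10 genes were highest in stromal classes in both libraries, and lowest in basal-like cells in DoubleTg and, on the full total, in seminal vesicle-like cells in TripleTg. In CPM, the UMIs of a gene in every 1000000 UMIs of the class, their sum was 8405 (8347 to 8464) in 951 fibroblast-like, 8881 (8674 to 9091) in 66 smooth muscle-like and 7385 (7272 to 7499) in 277 endothelial-like DoubleTg cells, against 3969 (3959.9 to 3977) in 4949 luminal-like, 3045 (3024 to 3066) in 1905 basal-like and 3257 (3208 to 3307) in 126 seminal vesicle-like cells. Among DoubleTg immune classes, macrophage-like cells had 5070.4, dendritic-like cells 4482 and T and NK-like cells 3911. In TripleTg the sum was 10437 (10292 to 10583) in 153 fibroblast-like, 5709 (5618 to 5802) in 244 endothelial-like and 5345 (5213 to 5480.3) in 90 smooth muscle-like cells. It was 3521 (3511 to 3530.1) in 4862 luminal-like, 2459 (2441 to 2478) in 1094 basal-like, 2496 (2454 to 2539) in 440 macrophage-like, 3028 (2946 to 3113) in 146 neutrophil-like and 1640.1 (1625 to 1655) in 742 seminal vesicle-like cells. Seminal vesicle markers took 36.9% of the UMIs of DoubleTg and 42.8% of those of TripleTg seminal vesicle-like cells, which lowers every other CPM there. With these markers left out of the total, an alternative chosen after the levels were seen, the sum was 5160 (5082 to 5239) in DoubleTg and 2866 (2840.3 to 2893) in TripleTg seminal vesicle-like cells, and the lowest TripleTg levels were then 2466 in basal-like and 2503 in macrophage-like cells. Depth ran the other way in part: median UMIs per cell were 7878, 8153 and 6134 in the 3 DoubleTg stromal classes and 35674 in luminal-like cells. The order of fibroblast-like over luminal-like cells was also present at equal depth, since at 2000 UMIs per cell a mean of 5.67 of the 10 genes had a UMI in DoubleTg fibroblast-like cells and 3.99 in luminal-like cells, and 6.50 and 3.78 in TripleTg.

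**Figure D1:**
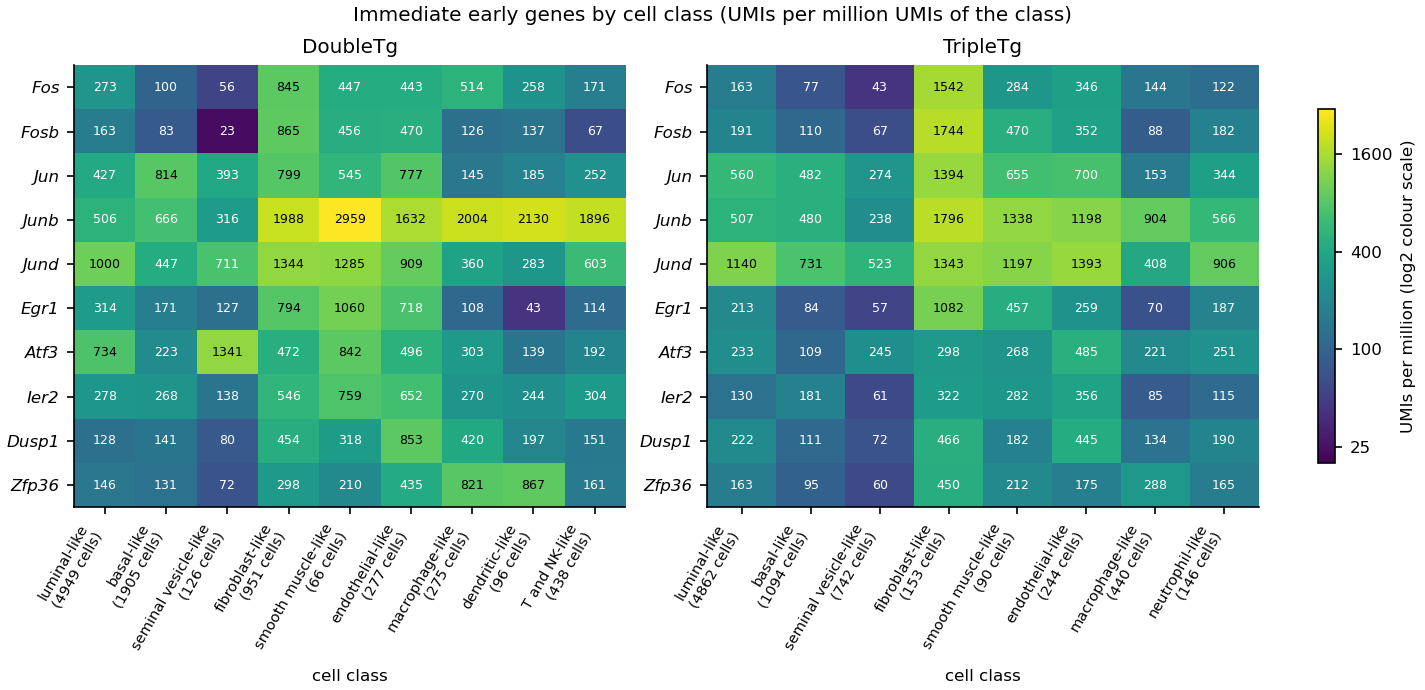
CPM of each immediate early gene (rows) in each named class of at least 50 cells (columns, with the number of cells), for DoubleTg (left) and TripleTg (right), with the value written in each tile and shown on a log2 colour scale. Fos, Fosb and Egr1 are high in stromal classes and low in seminal vesicle-like cells, while Atf3 in DoubleTg is highest in seminal vesicle-like cells, at 1341.

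Among the Fos family, Fos, the founding AP-1 subunit, stood at 845 CPM (826 to 864) in DoubleTg fibroblast-like cells, 514 (489 to 539) in macrophage-like, 447 (402 to 496) in smooth muscle-like, 443 (416 to 471) in endothelial-like and 273 (270.3 to 275) in luminal-like cells. It went down to 258 (234 to 283) in dendritic-like, 171 (158 to 184) in T and NK-like, 99.6 (95.9 to 103) in basal-like and 55.6 (49.3 to 62.4) in seminal vesicle-like cells. The intervals of smooth muscle-like and endothelial-like cells overlap, as do those of luminal-like and dendritic-like cells. In TripleTg, Fos was 1542 (1486 to 1599) in fibroblast-like, 346 (324 to 369) in endothelial-like, 284 (254 to 317) in smooth muscle-like, 163 (161 to 165) in luminal-like and 144 (134 to 155) in macrophage-like cells. The lowest levels were 122 (106 to 140.1) in neutrophil-like, 76.7 (73.4 to 80.0) in basal-like and 43.3 (40.9 to 45.8) in seminal vesicle-like cells. The intervals of macrophage-like and neutrophil-like cells overlap. Fibroblast-like cells led both libraries in Fos and seminal vesicle-like cells came last in both on the full total. Fosb, which pairs with Jun proteins like Fos, spanned DoubleTg classes on the full total from 23.4 (19.4 to 28.0) in seminal vesicle-like to 865 (847 to 884) in fibroblast-like cells, a 36.9-fold range, which was 23.3-fold with seminal vesicle markers left out of the total. In TripleTg it went from 66.8 (63.8 to 69.9) to 1744 (1685 to 1805) in the same pair of classes, with 191 (188 to 193) in luminal-like cells.

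The Jun family did not share 1 order. Jun was as high in DoubleTg basal-like cells, at 814 (804 to 825), as in fibroblast-like cells, at 799 (781 to 817), with overlapping intervals, and was 427 (424 to 429.9) in luminal-like and 145 (132 to 159) in macrophage-like cells. In TripleTg basal-like cells Jun was 482 (473 to 489.8), below the 559.5 (556 to 563) of luminal-like cells. Junb, an AP-1 subunit abundant in blood cells, was high in both immune and stromal DoubleTg classes, at 2959 (2841 to 3082) in smooth muscle-like, 2130.4 (2062 to 2201) in dendritic-like, 2004 (1955 to 2053) in macrophage-like, 1988 (1959 to 2017) in fibroblast-like and 1896 (1852 to 1940.4) in T and NK-like cells, against 506 (503 to 509) in luminal-like cells. TripleTg luminal-like cells had nearly the same Junb level, 507 (504 to 511), whereas TripleTg macrophage-like cells had 904 (878 to 929.9). Jund, the Jun family member that most cells keep on without a stimulus, varied by 4.75-fold over DoubleTg classes and 3.41-fold over TripleTg classes, the narrowest range of the 10 on the full total in both. With seminal vesicle markers left out, Ier2 was narrower in DoubleTg, at 3.46-fold. Jund had a UMI in 81.9% of DoubleTg and 85.1% of TripleTg luminal-like cells at 2000 UMIs per cell.

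Egr1, a zinc finger factor induced by growth factors, was highest among classes of at least 50 cells in DoubleTg smooth muscle-like cells, at 1059.9 (989 to 1134), and TripleTg fibroblast-like cells, at 1082 (1035 to 1129). Luminal-like cells had 314 (311 to 316) in DoubleTg and 213 (211 to 215) in TripleTg, and dendritic-like DoubleTg cells had 42.8 (33.5 to 53.8). Atf3, a stress-induced factor of the ATF/CREB family, departed from the other members. In DoubleTg it was highest in seminal vesicle-like cells, at 1341 (1309 to 1373), followed by smooth muscle-like cells at 842 (779 to 909) and luminal-like cells at 734 (730.2 to 738). In TripleTg it led in endothelial-like cells, at 485 (459 to 512), with 245 (239 to 251) in seminal vesicle-like and 233 (231 to 236) in luminal-like cells. Ier2, a nuclear protein of the early response, ranged from 138 (128 to 149) in seminal vesicle-like to 759 (699 to 822) in smooth muscle-like DoubleTg cells.

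The feedback genes had class patterns of their own. Dusp1, a phosphatase that switches off MAP kinases, was highest in DoubleTg endothelial-like cells at 853 (815 to 893), above fibroblast-like cells at 454 (440.1 to 468) and macrophage-like cells at 420.0 (398 to 443), and was 128 (126 to 129) in luminal-like cells. In TripleTg, fibroblast-like cells with 466 (436 to 498) and endothelial-like cells with 445 (419 to 471) had overlapping intervals, and luminal-like cells had 222 (219 to 224). Zfp36, which binds AU-rich transcripts and speeds their decay, was highest in DoubleTg myeloid cells, at 867 (823 to 912) in dendritic-like and 821 (790.5 to 853) in macrophage-like cells, whose intervals overlap. TripleTg macrophage-like cells had 288 (274 to 303), and TripleTg fibroblast-like cells led with 450.1 (420.4 to 481).

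Across the 17 named classes of at least 50 cells in both libraries, each member's log2 level was set against the mean of the other 9 as a description of 17 points that share libraries. Pearson's r was 0.90 for Fos, 0.86 for Fosb, 0.85 for Egr1, 0.85 for Dusp1 and 0.81 for Ier2, and lower for Junb at 0.67, Jund at 0.58, Jun at 0.55, Zfp36 at 0.45 and Atf3 at 0.26. Outside the lists used here, the genes whose class pattern was most like the mean of the members, out of 5754 ranked, were Arl5b (r = 0.93), Ppp1r15b (0.93), Sertad1 (0.92), Adamtsl1 (0.89) and Ptbp1 (0.88).

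Luminal-like cells were set against all named non-epithelial cells of the same library. In DoubleTg, 4949 luminal-like and 2142 non-epithelial cells gave a median log2 ratio of -0.92 over the 10 genes, with 8 below and 2 above 0. Of these, 5 were lower by at least 1 on the log2 scale, where 25.4% of the 3296 genes at 50 or more CPM in either group were, and none was higher by that much, where 14.1% were. Junb was lowest, at 506 against 1981 CPM and a log2 ratio of -1.97 (-1.98 to -1.95), followed by Dusp1 at -1.68, Fosb at -1.62, Zfp36 at -1.49 and Fos at -1.12. Atf3 was higher in luminal-like cells, at 734 against 394, a log2 ratio of 0.90 (0.87 to 0.93). In TripleTg, 4862 luminal-like and 1145 non-epithelial cells gave a median of -0.59, again with 8 below and 2 above 0. There 3 genes were lower by at least 1, against 22.9% of all 3257 genes compared, and none was higher by that much, against 11.0%. Fos was at -1.36 (-1.40 to -1.31), Fosb at -1.16 and Junb at -1.11, while Jund was at 0.39 (0.37 to 0.42) and Atf3 at -0.37 (-0.42 to -0.33). TMM scaling moved all ratios up by 0.45 in DoubleTg and 0.37 in TripleTg. In DoubleTg 4 members were then lower by at least 1 and 1 higher (Atf3, at 1.35), where 20.4% of all genes were lower and 24.9% higher. In TripleTg 0 were past 1 in either direction, with Fos at -0.99, where 19.3% were lower and 19.0% higher. TMM scaling turned Jun in DoubleTg from -0.37 to 0.079 and Dusp1 in TripleTg from -0.20 to 0.17. At 2000 UMIs per cell 4 TripleTg members were lower by at least 1, beside 25.6% of all genes, and with coarser clusters 5 were, beside 23.5%, with Fos at -1.99 and Egr1 at -1.15, while the DoubleTg count was 5 under both. In TripleTg, Jun, at 0.083, turned to -0.13 at 2000 UMIs per cell and to -0.24 with coarser clusters. Without neutrophil-like cells, whose cluster has the luminal gene Pbsn among its 10 leading genes, the TripleTg median was -0.67 and no member changed sign.

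Within the luminal-like class the members varied between clusters. Over the 10 DoubleTg luminal-like clusters, Atf3 spanned 255 to 1535 CPM, a 6.01-fold range, with the lowest level in a cluster led by Msln, Aldh1a3 and Psca and the highest in a cluster of 558 cells led by Sbp and Sbpl. Zfp36 spanned 4.18-fold, Fos 3.83-fold (122 to 466), Dusp1 3.72-fold and Fosb 3.39-fold, while Ier2 spanned 1.73-fold and Jund 1.70-fold. A cluster led by Tgm4 and C1rb held the lowest level of Fos, Jun, Junb, Ier2, Dusp1 and Zfp36. Over the 9 TripleTg luminal-like clusters, Dusp1 spanned 9.76-fold (51.6 to 504), Jun 5.92-fold (197 to 1163), Fos 5.46-fold (77.2 to 422) and Egr1 4.49-fold (77.5 to 348). A single cluster of 298 cells, led by the cornification and hair genes Tchh, Krt73 and Cnfn, held the lowest level of Fos, Fosb, Jun, Egr1, Dusp1 and Zfp36 and the highest of Jund, at 1429. Its 10 leading genes hold no luminal marker, although its summed luminal markers were at 11343 CPM, beside 14184 to 21528 in the other 8, and its place in the class is uncertain. Without it, an alternative chosen after the clusters were seen, Dusp1 spanned 4.70-fold (107 to 504), Jun 3.16-fold, Fos 4.90-fold and Egr1 3.38-fold. Without the Sbp-led DoubleTg cluster, Atf3 spanned 255 to 1173. The interferon-led TripleTg cluster (Ifit3, Rsad2, Isg15) of 97 cells held the highest Jun, Junb, Egr1, Ier2, Dusp1 and Zfp36 of the TripleTg luminal-like clusters. The interferon-led DoubleTg cluster of 150 cells held the highest Jun of its library's luminal-like clusters, at 748, and the highest level of no other member.

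The highest levels of all clusters over 50 cells were in 2 unnamed clusters led by the nuclear transcript Gm26917 and by Lars2. In the DoubleTg cluster of 459 cells the summed 10 genes reached 14814 (14624 to 15006) and in the TripleTg cluster of 285 cells 23327 (23044 to 23613) CPM. In the TripleTg cluster Jun was at 5868, Fos at 2986, Jund at 2768, Junb at 2329, Egr1 at 2241 and Atf3 at 2230.5, and in the DoubleTg cluster Jun was at 3224, Atf3 at 2253, Fos at 2039 and Egr1 at 1366. At 2000 UMIs per cell a mean of 9.05 of the 10 genes had a UMI in the TripleTg and 6.91 in the DoubleTg cluster, over the 228 and 233 cells deep enough. Both clusters were shallow, with medians of 2684 and 2071 UMIs per cell, median mitochondrial shares of 7.20% and 3.43%, and 44396 and 57512 CPM of Gm26917, against 271 and 230.4 in luminal-like cells. Their summed luminal markers were 14916 and 13471 CPM, where luminal-like clusters had 11343 to 21528 in TripleTg and 10075 to 29882 in DoubleTg. The part of cell damage or RNA content in these levels was not tested. Other shallow clusters had both low and high levels. Haemoglobin-led clusters of 627 DoubleTg and 731 TripleTg cells, with medians of 1508 and 2250 UMIs, had 2671 and 4186 CPM of the 10 genes, and a Jchain-led DoubleTg cluster with a median of 1058 UMIs had 4985. Small Schwann-like clusters of 39 DoubleTg and 25 TripleTg cells, with medians of 3713 and 2846 UMIs, had 12142 (11674 to 12624) and 15809 (15078 to 16567), the latter beside 63380.4 CPM of haemoglobin transcripts. An unnamed TripleTg cluster of 490 cells led by Apod, Igfbp6 and Matn2, with a median of 5026 UMIs, had 9503 CPM of the 10 genes beside 7912 CPM of fibroblast markers.

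**Figure D2:**
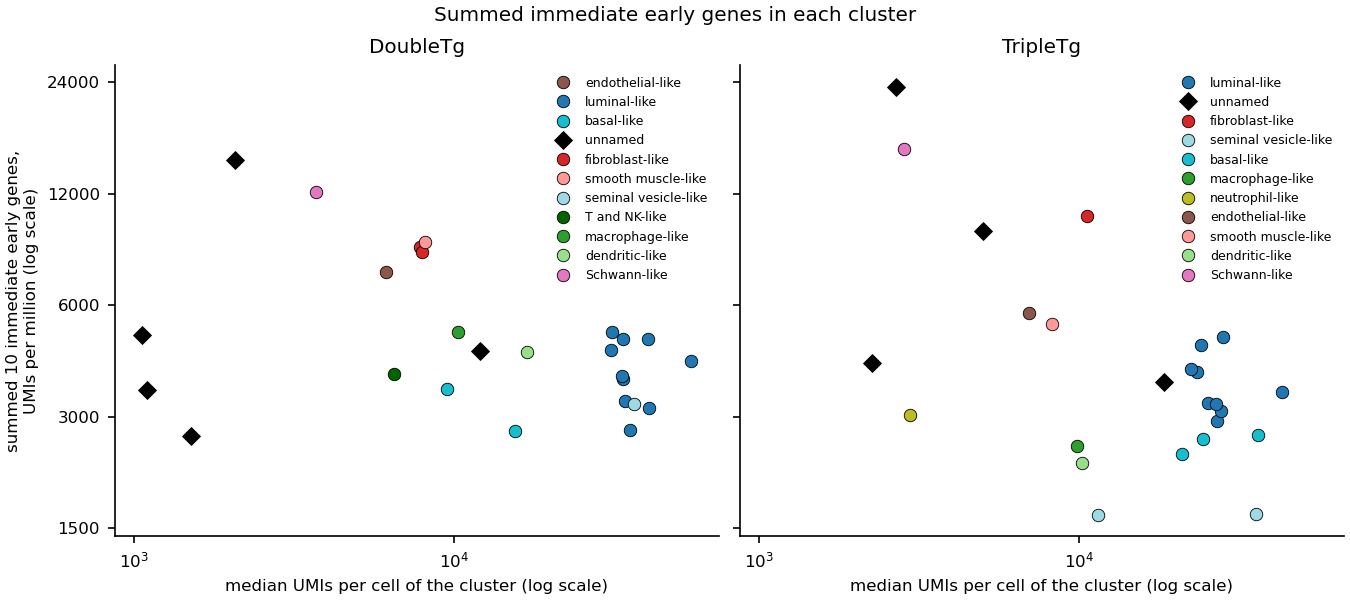
Summed CPM of the 10 immediate early genes in each cluster (vertical, log scale) against the median UMIs per cell of that cluster (horizontal, log scale), with DoubleTg on the left and TripleTg on the right; circles are named classes and black diamonds unnamed clusters. The top diamonds are the Gm26917-led clusters at 14814 and 23327, and the next highest clusters are the Schwann-like ones at 12142 and 15809.

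At 5000 UMIs per cell, 4781 DoubleTg luminal-like cells had a UMI for a mean of 5.93 of the 10 genes and 4726 TripleTg luminal-like cells for a mean of 5.74. At least 8 of the 10 were detected in 22.8% of DoubleTg and 18.7% of TripleTg luminal-like cells, in 48.8% and 66.7% of fibroblast-like cells and in 9.52% and 6.72% of basal-like cells. Spearman's rho between 2 members across DoubleTg luminal-like cells ran from -0.021 (Atf3 with Dusp1) to 0.34 (Egr1 with Ier2), with a median of 0.21 over 45 pairs. In TripleTg luminal-like cells it ran from -0.033, for the same pair, to 0.35 (Jun with Dusp1), with a median of 0.15. Fibroblast-like cells had higher values, with a median of 0.28 over 619 DoubleTg and 0.34 over 117 TripleTg cells, and Fos with Jun as the closest pair at 0.50 and 0.79. In luminal-like cells the summed members were nearly unrelated to original depth (rho -0.057 and 0.026), to mitochondrial share (0.055 and 0.021) and to summed heat shock transcripts (0.10 and 0.028). In fibroblast-like cells the rho with depth was -0.29 in both libraries, that with mitochondrial share 0.24 in DoubleTg and 0.15 in TripleTg, and that with heat shock transcripts 0.26 and -0.11. In TripleTg macrophage-like cells it was -0.24 with depth and -0.15 with mitochondrial share, against -0.023 and -0.00027 in DoubleTg. These coefficients are descriptions over cells of 1 library each.

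DoubleTg luminal-like cells with and without an hMETtg UMI addressed how these genes go with the transgene. After thinning to 5000 UMIs per cell, 3272 of 4781 cells (68.4%, 67.1% to 69.8%) had at least 1 hMETtg UMI. In classes in which Cre is not driven by design, the share was 14.4% (11.7% to 17.4%) of fibroblast-like, 13.8% (10.3% to 18.0%) of T and NK-like and 7.20% (4.39% to 11.0%) of macrophage-like cells, whose median depths before thinning were 10382, 7139 and 10577 UMIs against 36559 in luminal-like cells. Positive and negative luminal-like cells were alike in original depth, with medians of 36659.5 and 36303 UMIs, and in mitochondrial share, with 3.29% and 3.26%.

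The median of the 10 genes by hMETtg in DoubleTg was close to that of all genes, while single members lay on opposite sides of it. Their summed level was 4065 CPM in positive and 4256 in negative cells, and the median log2 ratio of positive over negative was 0.046, with 5 genes above and 5 below 0, beside a median of 0.096 over the 2576 genes at 50 or more CPM. None of the 10 was higher or lower by at least 1 on the log2 scale, where 0.738% of those genes were higher and 0.699% lower. Egr1 was higher in positive cells, at 369.7 against 259.6 CPM, a log2 ratio of 0.51 (0.44 to 0.58), and had a UMI in 62.0% (60.3% to 63.6%) of positive and 51.4% (48.9% to 54.0%) of negative cells. Fosb was at 199 against 154, a log2 ratio of 0.37 (0.28 to 0.47), and Dusp1 at 145 against 113, a log2 ratio of 0.36 (0.25 to 0.47). Atf3 was lower in positive cells, at 580.0 against 927, a log2 ratio of -0.68 (-0.72 to -0.63), and had a UMI in 66.6% of positive and 76.6% of negative cells. The other 6 lay between -0.083 (Junb) and 0.10 (Fos), with Ier2 at -0.0034 (-0.077 to 0.070) and Zfp36 at -0.027 (-0.13 to 0.075).

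**Figure D3:**
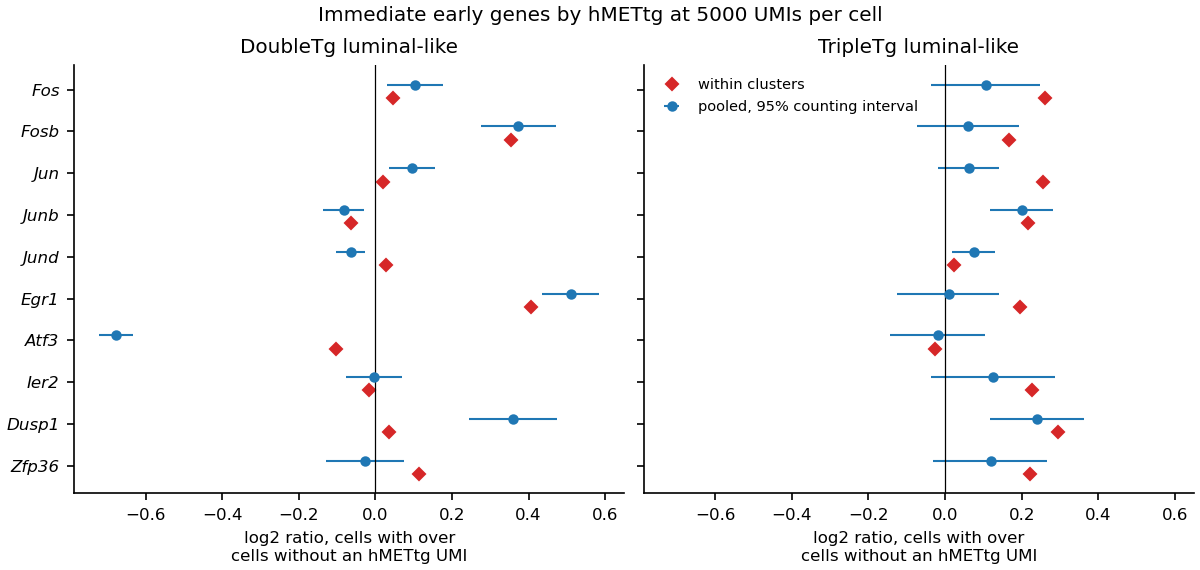
Log2 ratio of each immediate early gene in luminal-like cells with over cells without an hMETtg UMI at 5000 UMIs per cell, in DoubleTg (left) and TripleTg (right); circles with bars are pooled cells with 95% counting intervals and diamonds the mean within clusters weighted by positive cells. In DoubleTg the diamonds of Egr1 and Fosb lie at 0.41 and 0.35 and those of Atf3 and Dusp1 at -0.10 and 0.036; in TripleTg that of Egr1 lies at 0.19.

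Within clusters, the ratio of Fosb stayed inside its pooled interval, that of Egr1 fell below its interval, and those of Atf3 and Dusp1 came nearer 0. The share of hMETtg-positive cells varied from 5.71% to 85.2% over the 10 luminal-like clusters. The Sbp-led cluster, with the highest Atf3, held 22.5% of the negative but 5.59% of the positive cells. Taken within the 9 clusters with at least 20 cells of each kind, the log2 ratio was 0.41 for Egr1, 0.35 for Fosb, 0.036 for Dusp1 and -0.10 for Atf3. Egr1 was higher in positive cells in 9 of the 9 clusters, with an interval above 0 in 7, and its ratio ranged from 0.16 to 0.995. Fosb was higher in 8 of the 9, with an interval above 0 in 4. Atf3 was lower in 6 and higher in 3, from -0.88 to 0.85, and Dusp1 was higher in 6 and lower in 3. Jund turned from -0.064 to 0.027 within clusters. Within quartiles of original depth Egr1 was at 0.50, Fosb at 0.41, Dusp1 at 0.44 and Atf3 at -0.67, each inside its pooled interval. At 2000 UMIs per cell, where both the cells kept and the hMETtg calls differ, Fosb was at 0.11, Egr1 at 0.34, Dusp1 at 0.33 and Atf3 at -0.62. On all UMIs Fosb was at 0.21, Egr1 at 0.77, Dusp1 at 0.59 and Atf3 at -0.87. Without the Sbp-led cluster, an alternative chosen after the clusters were seen because its 10 leading genes hold the fibroblast gene Col6a3 and no luminal marker, the ratio was 0.39 for Egr1, 0.25 for Fosb, 0.20 for Dusp1 and -0.52 for Atf3, and Fos turned from 0.10 to -0.062 (-0.14 to 0.016). That cluster had 10075 CPM of summed luminal markers and 197 of fibroblast markers, beside 6652 and 19116 of fibroblast markers in the DoubleTg fibroblast-like clusters.

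Egr1 went up and Atf3 down in steps with the number of hMETtg UMIs. In DoubleTg luminal-like cells with 0, 1, 2 to 3, 4 to 7 and 8 or more hMETtg UMIs (1509, 774, 1109, 1053 and 336 cells), Egr1 was at 259.6, 308, 348, 420.1 and 426 CPM. Atf3 was at 927, 742, 587, 504 and 421 over the same bins. Fosb was at 154, 187, 198, 207 and 204, so that cells with no hMETtg UMI were lowest and the others differed little. Fos had another shape, at 282, 347, 310.4, 298 and 196, highest with 1 UMI and lowest with 8 or more. Ier2 was at 291, 278, 274, 297 and 348. Median depth before thinning was 36303, 39196, 38804, 35671 and 31403 UMIs over these bins. Without the Sbp-led cluster Atf3 went from 748 at 0 to 413 at 8 or more, and Egr1 from 286 to 419.8 (424 at 4 to 7). These bins pool cells over clusters, and bins within clusters were not made. The log2 ratio of positive over negative cells was -0.68 pooled and -0.10 within clusters for Atf3, and 0.51 and 0.41 for Egr1.

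**Figure D4:**
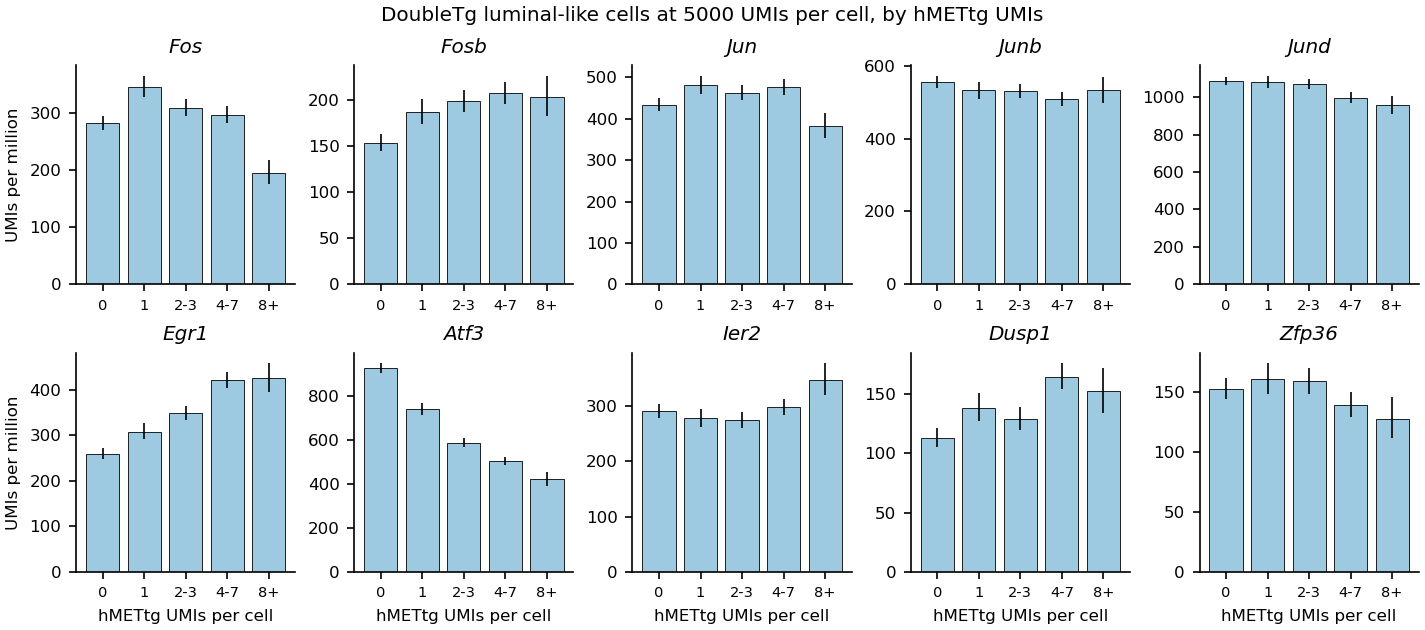
CPM of each immediate early gene in DoubleTg luminal-like cells at 5000 UMIs per cell, by the number of hMETtg UMIs in the cell (0, 1, 2 to 3, 4 to 7, 8 or more), with 95% counting intervals; each panel has its own vertical axis, starting at 0. Cells are pooled over clusters. Egr1 climbs from 259.6 to 426 and Atf3 declines from 927 to 421, while Junb, Jund and Zfp36 change little.

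The number of members detected per cell was close in the 2 kinds of DoubleTg luminal-like cells. Positive cells had a UMI for a mean of 6.0 ± 2.0 (SD over cells) and negative cells for 5.77 ± 1.98 of the 10 genes, a difference of 0.23, and 5 or more were detected in 75.9% (74.4% to 77.3%) and 73.0% (70.7% to 75.3%). On all UMIs the difference was 1.31 and at 2000 UMIs per cell 0.017.

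In TripleTg, hMETtg was seen in fewer luminal-like cells, 487 of 4726 (10.3%, 9.45% to 11.2%). The other epithelial classes had higher shares, 13.9% (11.9% to 16.2%) of basal-like and 33.6% (29.8% to 37.4%) of seminal vesicle-like cells. In classes in which Cre is not driven by design, the share was 1.21% (0.39% to 2.80%) of macrophage-like, 1.64% (0.041% to 8.80%) of smooth muscle-like, 5.13% (1.90% to 10.8%) of fibroblast-like and 5.56% (2.57% to 10.3%) of endothelial-like cells. It was 15.8% (7.48% to 27.9%) of 57 neutrophil-like cells, whose cluster had 14569 CPM of luminal markers. The luminal-like share was above the intervals of macrophage-like and smooth muscle-like cells and overlapped those of fibroblast-like, endothelial-like and neutrophil-like cells. The 2 kinds of luminal-like cell are therefore named by their UMI and not by expression of the transgene. The median log2 ratio of the 10 genes was 0.091, with 9 above 0 and only Atf3, at -0.018 (-0.14 to 0.10), below. None passed 1 in either direction, where 0.317% of 2524 genes were higher and 0.0396% lower. Dusp1, at 254 against 215 CPM, was at 0.24 (0.12 to 0.36) and Junb, at 566 against 493, at 0.20 (0.12 to 0.28). Egr1, at 214 against 213, was at 0.0092 (-0.12 to 0.14). Within clusters the median of the 10 was 0.22, with Egr1 at 0.19, Fos at 0.26, Jun at 0.25 and Dusp1 at 0.29. Positive cells were somewhat deeper, with medians of 28545 and 25940 UMIs before thinning. On all UMIs, 7 of the 10 ratios were below 0, among them Fos at -0.23, Jun at -0.21, Fosb at -0.21, Egr1 at -0.14 and Dusp1 at -0.019. Without the Tchh-led cluster each of the 10 stayed within its interval.

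TripleTg and DoubleTg luminal-like cells were compared at 5000 UMIs per cell, over 4726 and 4781 cells. The class was made of different clusters in the 2 libraries, led for example by Defa5, Coch, Fam213a and Rnase1 in TripleTg and by Msln, Msmb, Alb, Prr9 and Sbp in DoubleTg, so genotype, library, mouse and cluster makeup cannot be told apart. The members split evenly, with 5 above and 5 below 0 and a median log2 ratio of 0.0024. Atf3 was lower in TripleTg, at 245 against 689 CPM, a log2 ratio of -1.49 (-1.53 to -1.45), and Ier2 at 133 against 290.3, a ratio of -1.12 (-1.18 to -1.06). These 2 were lower by at least 1, where 12.3% of the 2852 genes compared were, and none was higher by that much, where 9.82% were. Fos was at 176 against 297 (-0.76, -0.81 to -0.70) and Egr1 at 213 against 335 (-0.65, -0.71 to -0.60). Dusp1 was higher in TripleTg, at 219 against 135 (0.69, 0.63 to 0.76), and Jun at 567 against 454 (0.32, 0.28 to 0.36). Fosb, Jund, Zfp36 and Junb lay between -0.096 and 0.17, and Junb turned to 0.0029 on all UMIs. Without the Sbp-led cluster Atf3 was at -1.25 and Dusp1 at 0.60. Without the Tchh-led TripleTg cluster they were at -1.56 and 0.76, no member changed sign, and the median was -0.0039.

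**Figure D5:**
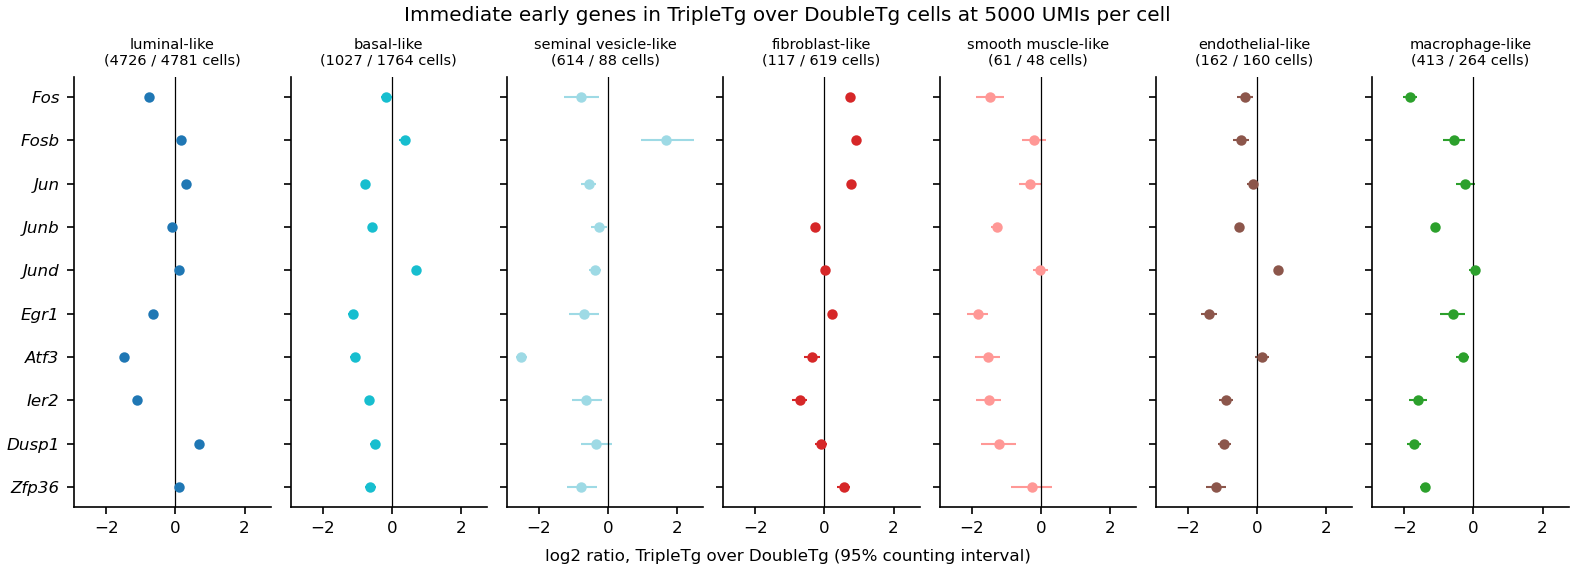
Log2 ratio of each immediate early gene in TripleTg over DoubleTg cells at 5000 UMIs per cell, in 7 classes (cells in TripleTg / DoubleTg above each panel), with 95% counting intervals. Ier2 and Junb lie left of 0 in each class, and Fos, Fosb and Jun lie right of 0 in fibroblast-like cells, at 0.73, 0.93 and 0.77.

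Across the 7 classes with at least 50 cells in both libraries before thinning, Ier2 and Junb were lower in TripleTg in each one, with all intervals below 0. Ier2 ran from -1.61 (-1.86 to -1.36) in macrophage-like to -0.63 (-1.06 to -0.18) in seminal vesicle-like cells, and Junb from -1.27 (-1.43 to -1.12) in smooth muscle-like to -0.096 (-0.13 to -0.060) in luminal-like cells, where on all UMIs it was at 0.0029. Atf3 was lower in 6 of the 7, furthest in seminal vesicle-like cells at 231 against 1314 CPM (-2.51, -2.67 to -2.35), and was at 0.14 (-0.058 to 0.34) in endothelial-like cells (-0.032 on all UMIs). Egr1 was lower in 6 of the 7, the other being fibroblast-like cells at 0.22 (0.094 to 0.34). Macrophage-like cells had 5 members lower by at least 1 and none higher, where 7.23% of all genes compared in that class were lower and 10.6% higher, and their median was -0.86 beside 0.18 over all genes. Among them, Fos was at 147 against 521 CPM (-1.82), Dusp1 at 152 against 497 (-1.71), Zfp36 at 330.3 against 873 (-1.40) and Junb at 927 against 2003 (-1.11). Endothelial-like cells had 2 lower, Egr1 at -1.39 and Zfp36 at -1.19, and none higher, beside 8.70% and 6.87% of all genes, and Jund at 0.61 (0.48 to 0.75) above 0. Neutrophil markers were at 1885 CPM in the TripleTg and 12.1 in the DoubleTg endothelial-like cluster, and haemoglobin transcripts at 4183 and 5.40. The part of these transcripts in the endothelial-like ratios was not tested. Smooth muscle-like cells, with only 61 TripleTg and 48 DoubleTg cells at this depth, had 6 lower and none higher, beside 17.6% and 14.4%. On all UMIs of 90 TripleTg and 66 DoubleTg cells, an alternative for these classes chosen after the levels were seen, 4 were lower, beside 13.7%, with Fos at -0.65 and Dusp1 at -0.80, and Jun turned from -0.31 (-0.62 to -0.0064) to 0.27. Fibroblast markers were at 4785 CPM in the TripleTg and 791 in the DoubleTg smooth muscle-like cluster, and their part in these ratios was not tested. Basal-like cells had 2 lower, Egr1 at -1.12 and Atf3 at -1.06, and none higher, beside 13.8% and 11.6%, with a median of -0.59, and Jund at 0.70 (0.63 to 0.76) and Fosb at 0.37 above 0. The basal-like class too was made of different clusters in the 2 libraries. A TripleTg cluster of 314 cells, led by Mt4, Igfbp2 and Ptn, held no basal keratin of the marker list among its 10 leading genes. Without it, an alternative chosen after the clusters were seen, Egr1 at -1.06 and Atf3 at -1.12 were again the 2 lower by at least 1 and none was higher, beside 12.0% and 11.4% of all genes, with Ier2 at -0.95, Jund at 0.46, Fosb at 0.55 and Dusp1 at -0.25 (-0.41 to -0.086), and no member changed sign. Seminal vesicle-like cells had Atf3 lower and Fosb, at 116 against 36.4 CPM (1.68, 0.96 to 2.50), higher by at least 1, beside 10.8% and 6.73%, and on all UMIs Egr1 at -1.16 and Ier2 at -1.18 were also lower by that much. Fibroblast-like cells had Fosb at 0.93 (0.83 to 1.03), Jun at 0.77, Fos at 0.73 and Zfp36 at 0.56 above 0 and none past 1 in either direction, where 11.2% of all genes were lower and 14.1% higher (on all UMIs Fosb was at 1.01). The TripleTg class was 1 cluster of 153 cells. With the Apod-led unnamed cluster added, an alternative chosen after the clusters were seen, 363 TripleTg cells gave Fosb at 0.49 (0.41 to 0.56), Fos at 0.42 (0.35 to 0.498), Jun at 0.30 and Zfp36 at 0.25, and Atf3 turned from -0.36 (-0.58 to -0.14) to 0.46 (0.34 to 0.58).

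The wider primary response list of 22 genes, of which 18 had at least 50 CPM in luminal-like cells, also split. Between hMETtg-positive and negative DoubleTg luminal-like cells, 10 of the 18 were above and 8 below 0, with a median log2 ratio of 0.10 beside 0.096 over all genes. Ier5 was at 0.50 (0.42 to 0.59), Ier3 at 0.47 (0.42 to 0.53), Nr4a1, an orphan nuclear receptor of the early response, at 0.36 (0.26 to 0.47) and Maff at 0.32. Within clusters they were at 0.23, 0.30, 0.29 and 0.27. Ctgf, a secreted matrix protein, was at -1.45 (-1.66 to -1.24), the one gene of the list past 1, where 0.738% of all genes compared were higher and 0.699% lower by that much. It was at -0.31 within clusters. In TripleTg over DoubleTg luminal-like cells, 9 were above and 9 below 0. Ctgf was at 244 against 32.6 CPM (2.90) and Ier3 at 1819 against 584 (1.64), and Btg2, an antiproliferative gene, was at 146 against 495 (-1.76). Nr4a1 was at -0.90, Fosl1 at -0.96 and Myc at -0.80. In basal-like cells 16 of 19 were below 0 and 10 were lower by at least 1, where 13.8% of the 2983 genes compared in that class were and their median was -0.13. Without the Mt4-led cluster 16 were below 0 and 8 lower by at least 1, where 12.0% of the 2979 genes then compared were.

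Heat shock genes, which dissociation and stress are also known to raise, were set beside the members. Over the 9 of 10 with at least 50 CPM, the median log2 ratio by hMETtg in DoubleTg luminal-like cells was -0.051, from -0.24 to 0.21. TripleTg over DoubleTg luminal-like cells gave a median of 0.21, with 6 above and 3 below 0, and Hspb1, a small heat shock protein of epithelia, at 4584 against 1262 CPM (1.86). The stress-inducible Hspa1a and Hspa1b were at -0.38 and -0.44. In macrophage-like cells, where 9 of 10 immediate early genes were below 0, the 6 heat shock genes above that level were all above 0, with a median of 0.41. In basal-like cells 6 of 9 heat shock genes were below 0, with a median of -0.17. In fibroblast-like cells 7 of 10 were, with a median of -0.67, and 4 were lower by at least 1, beside 11.2% of all genes, among them Hspa1b at -3.14 and Hspa1a at -1.98, while Fos, Fosb and Jun were above 0 there. In seminal vesicle-like, smooth muscle-like and endothelial-like cells the heat shock medians were 0.21, 0.17 and 0.12. The methods give 1 digestion protocol for both libraries, and the part of sample handling in these differences was not tested.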

How the data were processed

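The authors' deposited matrices hold raw UMI counts per gene and cell, made with Cell Ranger 6.0.2 on mm10 per the submitters' processing notes, with the transgene sequences added. The DoubleTg matrix still held cells outside the study's limits, so both were held to the study's limits of more than 200 and fewer than 7000 genes and a mitochondrial share below 15%. In DoubleTg this left more cells than the study states, and in TripleTg the same number. No doublet caller was run. Each library was clustered with scanpy 1.11.5 (counts per 10000, log scale, 2000 variable genes, 20 principal components, 15 neighbours, Leiden resolution 1), without the members, the wider early response and heat shock lists and the transgenes. Clusters were named from fixed marker lists, with naming thresholds set after the clusters were seen. UMIs were summed per class and divided by the total to give CPM. Thinning drew 5000 or 2000 UMIs per cell without replacement and left out shallower cells. Intervals at 95% were exact Poisson for levels, Clopper-Pearson for shares and conditional binomial for ratios. Within-cluster ratios had 0.5 UMIs added to each sum. TMM factors came from edgeR 4.0.16. Gene positions are from GENCODE vM21. The steps were tested on simulated data. The text names the 10 members, genes of the 2 lists, and the 5 genes outside them nearest in class pattern. Members and lists were chosen with earlier results of these data known.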

Additional observations from a re-analysis of the deposited data

Results flagged for a closer look

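Several ratios had opposite signs in 2 libraries or classes with both counting intervals clear of 0, and none of these differences was tested, because each group is 1 library. By hMETtg, Junb was at -0.083 on the log2 scale in DoubleTg and 0.20 in TripleTg luminal-like cells, and Jund at -0.064 and 0.075. Within clusters Jund was at 0.027 and 0.023, so its signs no longer differed, while Junb was at -0.063 and 0.22. For TripleTg over DoubleTg, Fos was at -0.76 in luminal-like and 0.73 in fibroblast-like cells, and Egr1 at -0.65 and 0.22. Against basal-like cells, Jun was at 0.32 in luminal-like and -0.76 in basal-like cells, Dusp1 at 0.69 and -0.48, and Zfp36 at 0.10 and -0.62.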

How the results depend on the processing

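Each genotype is 1 library, so the medians below, log2 ratios over the 10 genes, are values without a test. The luminal-like over non-epithelial median, -0.92 in DoubleTg and -0.59 in TripleTg, was -0.47 and -0.22 with TMM factors, -0.98 and -0.68 under 5000 genes per cell, -0.89 and -0.95 at Leiden resolution 0.5, -0.99 and -0.89 with the members in the clustering and -1.13 and -0.87 at 2000 UMIs per cell, and -0.67 in TripleTg without neutrophil-like cells, an alternative chosen after seeing the data. By hMETtg in DoubleTg (0.046) it was 0.13 under 5000 genes and on all UMIs, -0.094 at 2000 UMIs and -0.042 without the Sbp-led cluster, an alternative chosen after seeing the data. In TripleTg (0.091) it was -0.085 on all UMIs, -0.079 with hMETtg called on all UMIs and 0.30 with at least 2 hMETtg UMIs. TripleTg over DoubleTg luminal-like (0.0024) was -0.11 under 5000 genes and 0.079 on all UMIs. In fibroblast-like cells (0.11) it was 0.24 with the Apod-led cluster, chosen after seeing the data. The difference in members per cell by hMETtg (0.23) was 1.31 on all UMIs and 0.017 at 2000 UMIs.

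Of the 270 single-gene values under alternatives, 124 lay within the interval of the reported value. In 23 the sign changed, and in 11 of these the reported interval was clear of 0, as follows. Luminal-like over non-epithelial, Jun turned to 0.079 (DoubleTg, TMM), and to -0.13 (TripleTg, 2000 UMIs) and -0.24 (resolution 0.5), and Dusp1 to 0.17 (TripleTg, TMM). By hMETtg in DoubleTg, Fos turned to -0.12 at 2000 UMIs and -0.062 without the Sbp-led cluster, Jun to -0.10 at 2000 UMIs and Jund to 0.027 within clusters, and in TripleTg Dusp1 to -0.019 on all UMIs. TripleTg over DoubleTg, Junb turned to 0.0029 on all UMIs in luminal-like cells and Atf3 to 0.46 in fibroblast-like cells with the Apod-led cluster. Outside the 270 values, Jun in smooth muscle-like cells turned from -0.31 (-0.62 to -0.0064) to 0.27 on all UMIs. No paired analysis was possible because each genotype had 1 library. The cause of these shifts was not tested, and depth limits what is said of smooth muscle-like and Schwann-like cells.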
